A study of Mus musculus with 12 samples.

Results

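The 10 genes followed here are expressed by the endothelial cells of brain vessels and were measured in the forebrain of Shank2-mutant and wild-type mice. They were Arap3, Cldn5, Pecam1, Flt1, Kdr, Tek, Cdh5, Slc2a1, Abcb1a, and Mfsd2a, and all 10 were found by symbol among the 19312 genes of the expression table. The list joins known endothelial and blood-brain barrier genes to Arap3, which was chosen by its measured values, because it was lower in vehicle-treated knockouts than in vehicle-treated wild-type mice. The value of Arap3 in that comparison, and in those that share its mice, is therefore a description with no test. The other members and the gene lists below were also chosen with earlier results of these data known. Their counts beside the shares of all genes are therefore descriptions too.

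The mice were male C57BL/6N animals at postnatal day 25, with 3 mice in each of 4 groups. WT-Veh and WT-Mem mice were wild-type, and KO-Veh and KO-Mem mice carried a homozygous deletion of Shank2 exons 6 and 7. Memantine, an uncompetitive antagonist of NMDA receptors, was given by mouth at 20 mg/kg in 0.1% saccharin, 2 times a day from postnatal day 7 to 21, and vehicle was the saccharin solution. Each mouse was a separate library. The labels give whole brain as the tissue, whereas the methods describe forebrain from which the cerebellum and the brain stem beneath it had been removed, so the vessels of all forebrain regions were measured together with the other brain cells.

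Brain endothelial cells line the vessels and form the blood-brain barrier. Tight junctions close the gaps between neighbouring cells, so nutrients have to cross through transporters and many drugs are pumped back into the blood. Cell growth and vessel branching are driven by vascular endothelial growth factor (VEGF), and vessel stability by angiopoietin signals, both of which are read by receptors that endothelial cells carry on their surface. Of the genes followed here, Cldn5 (claudin-5, the main tight junction protein of the barrier), Cdh5 (VE-cadherin) and Pecam1 (CD31) join endothelial cells to one another. Flt1 and Kdr encode VEGF receptors, and Tek encodes Tie2, the receptor for angiopoietins. Slc2a1 (GLUT1) carries glucose, Mfsd2a carries lysophospholipids that contain docosahexaenoic acid, and Abcb1a (P-glycoprotein) pumps drugs out. Arap3 encodes a GTPase-activating protein that is controlled by phosphoinositide 3-kinase and is needed for vessel sprouting.

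Promoters are shown for 2 receptors, the junction gene Cldn5 and the transporter Slc2a1, because they stand for the receptor, junction and transport genes, whose values are described separately. Each runs from 250 bases before to 50 bases after the RefSeq start on GRCm38.p6, 5′ to 3′ on the strand of the gene. The RefSeq promoter table held 7 of the 10 genes; Arap3, Pecam1, and Cdh5 were without an entry. Capitals mark GGAA and its reverse complement TTCC, the core of the sites that ETS factors bind, which many endothelial genes use. The Flt1 window is chr5:147725962-147726261 on the minus strand, the Kdr window is chr5:75978406-75978705 on the minus strand, the Cldn5 window is chr16:18776597-18776896 on the plus strand, and the Slc2a1 window is chr4:119108495-119108794 on the plus strand.
Flt1: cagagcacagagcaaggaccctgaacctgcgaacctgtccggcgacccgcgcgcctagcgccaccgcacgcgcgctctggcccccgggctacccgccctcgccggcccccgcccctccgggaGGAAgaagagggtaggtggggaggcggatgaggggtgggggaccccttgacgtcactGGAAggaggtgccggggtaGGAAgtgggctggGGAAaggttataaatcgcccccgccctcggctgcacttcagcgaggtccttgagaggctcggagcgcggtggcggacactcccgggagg
Kdr: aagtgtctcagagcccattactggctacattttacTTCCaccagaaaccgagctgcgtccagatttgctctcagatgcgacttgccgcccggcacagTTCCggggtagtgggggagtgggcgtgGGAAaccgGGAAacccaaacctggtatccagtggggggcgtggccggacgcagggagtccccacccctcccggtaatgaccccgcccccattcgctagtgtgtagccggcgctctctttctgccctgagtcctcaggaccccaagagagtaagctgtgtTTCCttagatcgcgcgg
Cldn5: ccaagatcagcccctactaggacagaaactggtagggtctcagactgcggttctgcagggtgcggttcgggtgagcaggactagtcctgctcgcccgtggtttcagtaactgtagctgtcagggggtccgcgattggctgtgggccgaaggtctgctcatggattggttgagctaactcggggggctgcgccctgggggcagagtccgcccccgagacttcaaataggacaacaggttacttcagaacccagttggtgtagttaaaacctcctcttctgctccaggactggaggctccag
Slc2a1: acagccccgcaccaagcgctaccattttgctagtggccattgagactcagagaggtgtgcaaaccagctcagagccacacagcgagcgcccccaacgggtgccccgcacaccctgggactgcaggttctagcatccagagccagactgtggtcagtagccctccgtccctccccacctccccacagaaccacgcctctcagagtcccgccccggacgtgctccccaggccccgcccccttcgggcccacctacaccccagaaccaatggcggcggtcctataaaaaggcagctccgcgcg

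The core was present 4 times in the Flt1 window and 5 times in the Kdr window, on either strand, and 0 times in those of Cldn5 and Slc2a1. It occurred 2 times in the Tek window, 3 times in that of Mfsd2a, and 5 times in that of Abcb1a, whose RefSeq start lay 92986 bases from the start in GENCODE. These letters are short, so they were found in 96.0% of all 32851 promoter windows, with a median of 3 matches. The 6-letter Sp/KLF box GGGCGG, searched on both strands, was found in 35.7% of all windows and occurred 3 times in the Flt1 window, 2 times in those of Kdr and Slc2a1, 1 time in that of Cldn5, and 0 times in those of Tek, Abcb1a, and Mfsd2a. A match is a description of the sequence and not a bound site.

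The values are the authors' normalized counts, which were already scaled between mice, so that their sums (30373849 to 31199251) are not sequencing depths. Between 61 and 88 genes were at 0 in a mouse, and the 10 most abundant held 4.35% to 6.10% of the sum, highest in WT-Veh replicate 3. Shank2, the targeted gene, was between 7156 and 8548 in the 6 wild-type mice and between 2706 and 3178 in the 6 mutant mice, so each mouse matched its genotype label. No member was at 0 in any mouse, all 10 passed the filter on low values (a mean of at least 10), and the defining endothelial markers Pecam1 and Cdh5 were present in each mouse. KO-Mem replicate 1 was the lowest of the 12 mice in the mean level of many of the vessel lists described below. For the 10 members in Mem-K/W, the range over leaving out each mouse is given with the values. No such range was computed for the genes of the lists, so their Mem-K/W values can rest on single mice. Because whole tissue was sequenced, fewer endothelial cells and less RNA per endothelial cell cannot be told apart.

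Per kilobase of exon, Slc2a1 and Cldn5 had the highest normalized counts of the 10 genes, at 987 ± 104 and 969 ± 160 (SD, n = 12 mice), and these neighbours did not differ beyond their spread. Mfsd2a followed at 563 ± 74.3 and Abcb1a at 214 ± 16.5. Flt1 (131 ± 15.0) and Cdh5 (126 ± 17.7) overlapped in their spread, as did Pecam1 (91.2 ± 9.2), Tek (89.4 ± 14.5), and Kdr (82.6 ± 7.9). Arap3 was lowest at 45.2 ± 14.4. The order of the middle genes depends on the length used: with the longest transcript in place of all exons, Flt1 (256) stood above Abcb1a (235). Arap3 was the lowest and Slc2a1 the highest with either length.

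**Figure D1:**
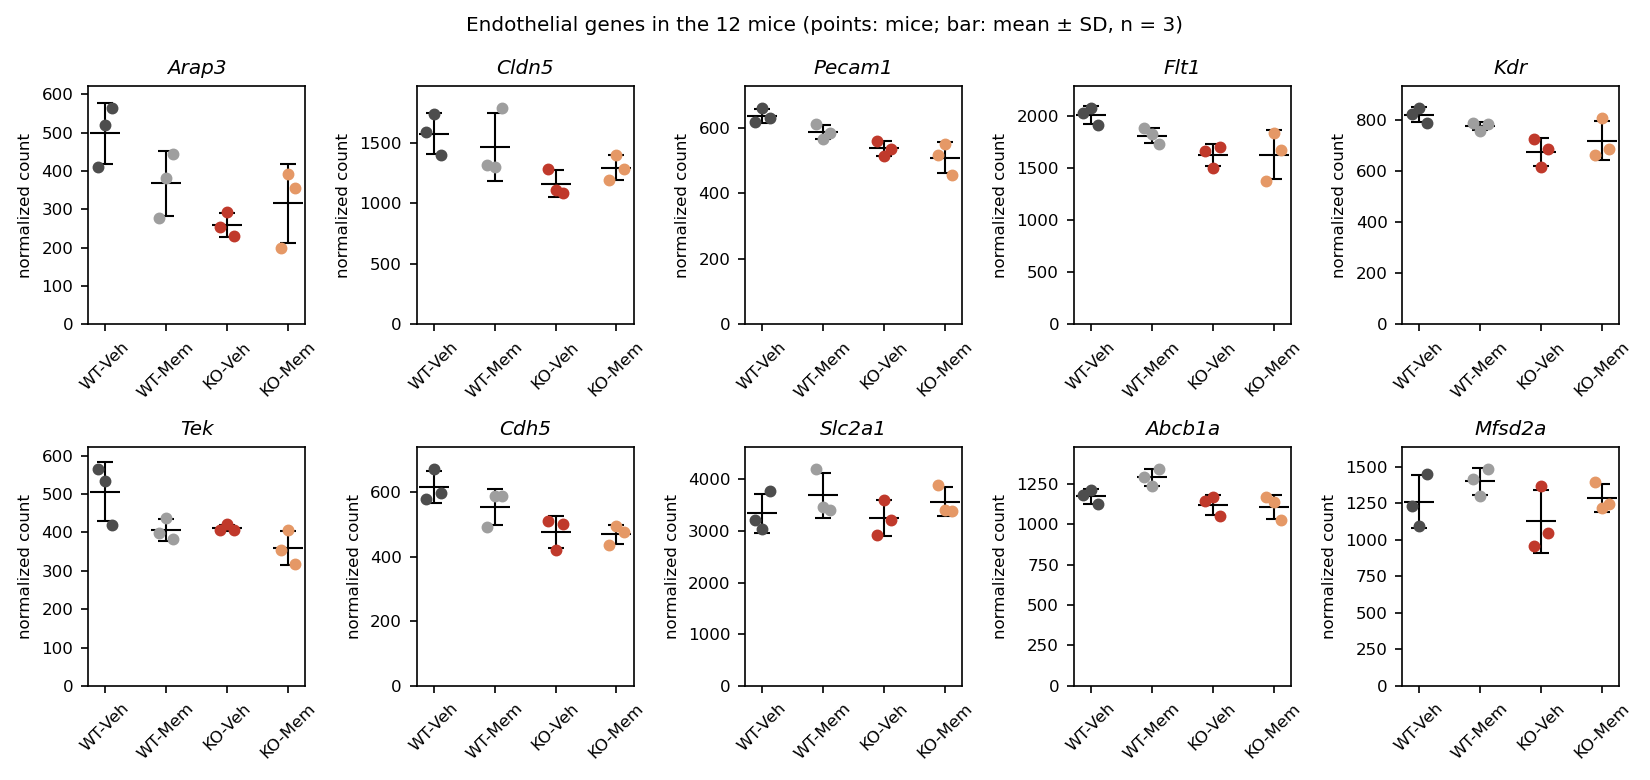
Normalized count (vertical axis, from 0) of the 10 endothelial genes in the 4 groups; points are mice and black bars the mean ± SD of 3 mice. Arap3 was between 410.3 and 565 in WT-Veh and between 231 and 294 in KO-Veh mice, and Slc2a1, Abcb1a, and Mfsd2a overlapped between these groups.

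Arap3 (ENSMUSG00000024451; GRCm38 chromosome 18, 37972628 to 37998969, minus strand, with exons and introns counted as the gene) measured 410.3, 519, and 565 normalized counts in the WT-Veh group and 253, 294, and 231 in the KO-Veh group. Every KO-Veh mouse was below every WT-Veh mouse, which is what the gene was selected on. The means were 498 ± 79.4 and 259 ± 31.8 (SD, n = 3), a difference of -47.7% or -0.93 on the log2 scale. The memantine-treated groups held other mice and did not enter that choice. WT-Mem mice had 276, 381, and 445 (mean 367 ± 84.9), and KO-Mem mice 199, 391, and 356 (315 ± 102). These groups overlapped, with 1 low mouse in each and the other two of each group between 356 and 445.

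In Mem-K/W transcripts (KO-Mem against WT-Mem), the log2 fold change of Arap3 was -0.25 (SE 0.25, 95% interval -0.81 to 0.31, limma adjusted p = 0.589). The difference was smaller than the spread between mice, and its interval included 0. Leaving out each mouse in turn moved it from -0.44 to 0.05, and the positive value came without KO-Mem replicate 1. The treated groups lay between the vehicle-treated ones: as descriptions, the log2 differences were -0.45 for WT-Mem against WT-Veh (WT-M/V) and 0.23 for KO-Mem against KO-Veh (KO-M/V). The difference between both genotype contrasts (Mem-K/W minus Veh-K/W) was 0.68 with an SE of 0.32, and it rests on the same vehicle-treated mice that chose the gene.

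In Veh-K/W transcripts (KO-Veh against WT-Veh), the junction and receptor genes had lower normalized counts in the knockouts, while the transporters Slc2a1 and Abcb1a differed little. The transporter Mfsd2a had a wide interval (-0.48 to 0.13) that reached the values of the junction and receptor genes. All 9 members other than Arap3 had a negative log2 fold change, against 49.6% of all 17671 genes tested. Of these 9, 6 had an unadjusted p under 0.05 and a lower value, which 7.68% of all genes did, and 5 had groups without overlap and a lower value in KO-Veh, which 10.7% of all genes did. The count of 6 fell to 4 without WT-Veh replicate 2. None of the 9 passed the adjusted threshold of 0.05 over all genes, which 5 genes did (0.0283%). Because the members were chosen with earlier results of these data known, these counts are descriptions.

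Cldn5 (ENSMUSG00000041378; chromosome 16, 18776847 to 18778262) had normalized counts of 1586, 1735, and 1396 in WT-Veh mice and 1286, 1109, and 1081 in KO-Veh mice. The lowest WT-Veh mouse was above the highest KO-Veh mouse, and the log2 fold change was -0.44 (SE 0.10, limma adjusted p = 0.142). Cdh5 (ENSMUSG00000031871; chromosome 8, 104101625 to 104144511) had 578, 671, and 596 in WT-Veh and 509, 421, and 501 in KO-Veh mice, also without overlap, with a log2 fold change of -0.37 (SE 0.10, limma adjusted p = 0.193). Pecam1 (ENSMUSG00000020717; chromosome 11, 106654217 to 106750628) was close within each group, at 619, 662, and 631 in WT-Veh and 560.3, 516, and 537 in KO-Veh mice. Its log2 fold change was -0.25 (SE 0.08, limma adjusted p = 0.244).

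Among the receptors, Flt1 (ENSMUSG00000029648; chromosome 5, 147561604 to 147726011) had 2025, 2077, and 1907 in WT-Veh and 1664, 1504, and 1698 in KO-Veh mice. The groups did not overlap, and the log2 fold change was -0.31 (SE 0.07, limma adjusted p = 0.157). Kdr (ENSMUSG00000062960; chromosome 5, 75932827 to 75978458), the other VEGF receptor, had 822, 846, and 787 against 723, 615, and 684, without overlap, and a log2 fold change of -0.28 (SE 0.09, limma adjusted p = 0.214). Tek (ENSMUSG00000006386; chromosome 4, 94739289 to 94874976) had 565, 535, and 419 in WT-Veh and a narrow 407, 422, and 406 in KO-Veh mice. WT-Veh replicate 3 reached into the range of the knockouts, so the Tek groups overlapped (log2 fold change -0.29, SE 0.12, limma adjusted p = 0.309).

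The 3 transporters overlapped between WT-Veh and KO-Veh mice. Slc2a1 (ENSMUSG00000028645; chromosome 4, 119108711 to 119137983) had 3203, 3045, and 3770.0 in WT-Veh and 2916, 3605, and 3209 in KO-Veh mice, with a log2 fold change of -0.04 (95% interval -0.26 to 0.17, adjusted p = 0.871). Abcb1a (ENSMUSG00000040584; chromosome 5, 8660077 to 8748575) had 1181, 1210.2, and 1123 against 1142, 1168, and 1049, with a log2 fold change of -0.07 (95% interval -0.23 to 0.10, adjusted p = 0.710). It overlaps the predicted gene Gm42686 on the opposite strand, which is also in the table, and reads of both could not be told apart without strand. Mfsd2a (ENSMUSG00000028655; chromosome 4, 122946850 to 122961188) varied most within KO-Veh, at 958, 1370.1, and 1045 against 1232, 1097, and 1452, and its log2 fold change was -0.17 (95% interval -0.48 to 0.13, adjusted p = 0.586). The intervals of Slc2a1 and Abcb1a did not reach the log2 fold changes of Cldn5, Cdh5, Flt1, and Kdr, but the difference between genes was not tested.

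**Figure D2:**
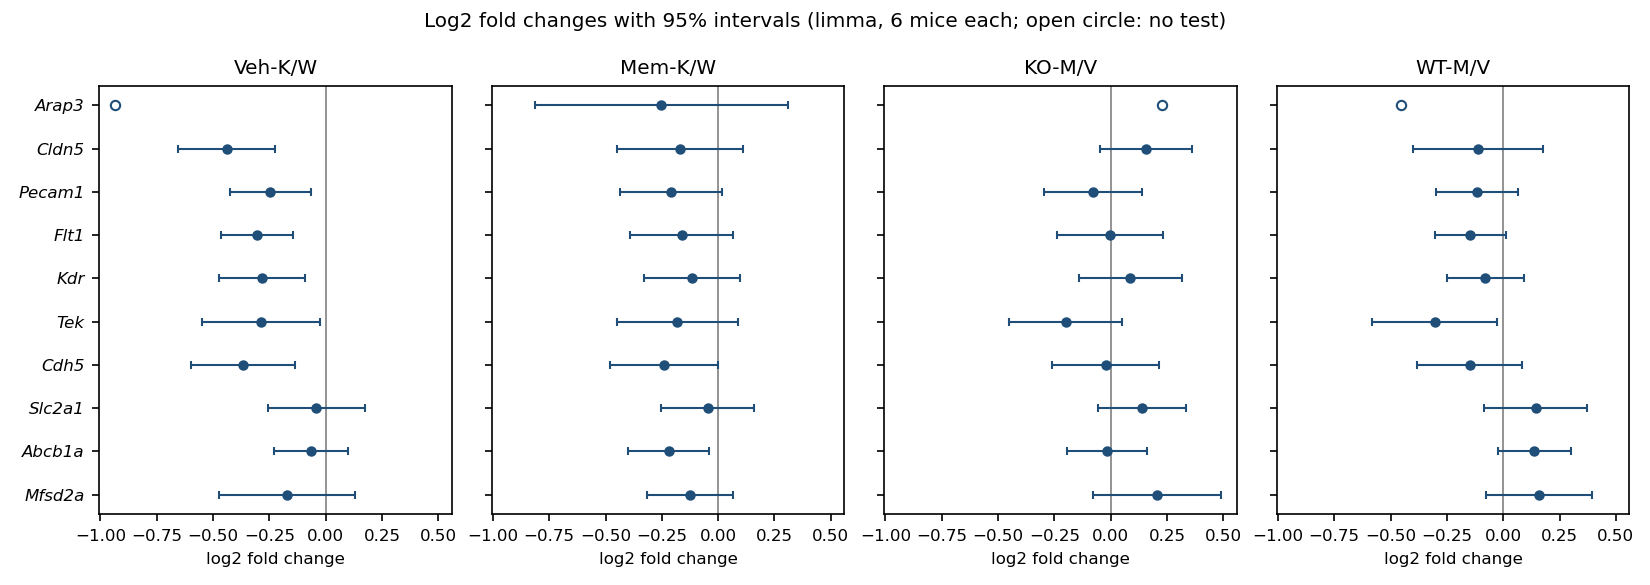
Log2 fold change (horizontal axis) of each of the 10 endothelial genes in 4 comparisons of 3 mice with 3 mice, with 95% intervals from limma; the open circle is Arap3 where its mice were used to choose it. The 6 junction and receptor genes lay between -0.44 and -0.25 in Veh-K/W, and the 3 transporters between -0.17 and -0.04.

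Among memantine-treated mice, which share no animal with the vehicle-treated ones, the knockouts again had the lower mean for every member. All 9 members other than Arap3 had a negative log2 fold change in Mem-K/W, against 49.7% of all genes, with a median of -0.17. Only 1 of them (Abcb1a) had an unadjusted p under 0.05 and a lower value, against 10.8% of all genes, and 2 (Pecam1 and Abcb1a) had groups without overlap and a lower value, against 13.5%. None passed the adjusted threshold, which 12 of 17646 genes did (0.068%). That background depends on 1 library, since 1911 genes passed without KO-Mem replicate 3.

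Pecam1 had 612, 568, and 584 in WT-Mem and 519, 553, and 458 in KO-Mem mice, so every knockout was lower (log2 fold change -0.21, SE 0.10, limma adjusted p = 0.264). Cdh5 had 490.5, 587, and 588 against 436, 494, and 476, with a log2 fold change of -0.24 (SE 0.11, limma adjusted p = 0.238). The VEGF receptors overlapped between these groups. Flt1 had 1879, 1820.3, and 1731 in WT-Mem and 1378, 1837, and 1667 in KO-Mem mice (log2 fold change -0.16, SE 0.10, limma adjusted p = 0.383), and Kdr had 785, 756, and 782 against 663, 805, and 684 (-0.11, SE 0.10, limma adjusted p = 0.512). In both genes the low mouse was KO-Mem replicate 1 and replicate 2 stood within or above the WT-Mem range. Leaving out each mouse moved Flt1 from -0.26 to -0.05 and Kdr from -0.20 to -0.06, in both genes smaller without KO-Mem replicate 1 and larger without replicate 2. Pecam1 ranged from -0.27 to -0.13 (smaller without KO-Mem replicate 3) and Cdh5 from -0.33 to -0.19.

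Cldn5 had 1313, 1294, and 1788 in WT-Mem and 1194, 1399, and 1279 in KO-Mem mice, and Tek had 398, 438, and 384 against 355, 407, and 317. Both overlapped, with log2 fold changes of -0.17 (adjusted p = 0.454) and -0.18 (adjusted p = 0.407). The Cldn5 difference depended on 1 mouse, ranging from -0.25 to -0.02 with the smallest value without WT-Mem replicate 3, and Tek ranged from -0.27 without KO-Mem replicate 2 to -0.09 without KO-Mem replicate 3. The drug pump Abcb1a had 1289, 1239, and 1339.9 in WT-Mem and 1165, 1136, and 1023 in KO-Mem mice, without overlap (log2 fold change -0.22, SE 0.08, limma adjusted p = 0.171). Slc2a1 (4194, 3469, and 3410.4 against 3897, 3409.9, and 3393) and Mfsd2a (1414, 1302, and 1482 against 1393, 1218, and 1241) overlapped, with log2 fold changes of -0.05 (adjusted p = 0.806) and -0.12 (adjusted p = 0.422). Leaving out each mouse gave -0.26 to -0.16 for Abcb1a, -0.11 to 0.05 for Slc2a1, which turned positive without WT-Mem replicate 1, and -0.18 to -0.08 for Mfsd2a, smallest without WT-Mem replicate 3.

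Summed over the 10 genes, the normalized counts were 12221 to 12646 in WT-Veh, 11855 to 12651 in WT-Mem, 10419 to 11022 in KO-Veh, and 10894 to 11649 in KO-Mem mice. The knockouts lay below the wild-type mice under both treatments. Slc2a1 supplies the largest part of the sum, and Arap3, chosen for its difference, a small one. On the log2 scale, the mean deviation of the 6 junction and receptor genes from their 12-mouse mean was 0.21, 0.29, and 0.10 in WT-Veh and -0.05, -0.20, and -0.11 in KO-Veh mice. It was 0.01, 0.04, and 0.09 in WT-Mem and -0.22, 0.01, and -0.19 in KO-Mem mice, where replicate 2 stood with the wild-type mice.

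None of the 9 members other than Arap3 passed the test for an effect of memantine within a genotype. In KO-M/V transcripts, 5 of the 9 members other than Arap3 were lower in KO-Mem than in KO-Veh mice and 0 had an unadjusted p under 0.05 and a lower value, against 4.54% of all genes. Their log2 fold changes lay between -0.20 (Tek, adjusted p = 0.593) and 0.21 (Mfsd2a, adjusted p = 0.618). No member and no other gene passed the adjusted threshold (0 of 17707, 0%) with limma, although 1573 genes had an unadjusted p under 0.05.

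In WT-M/V transcripts, the 6 junction and receptor genes were lower in WT-Mem than in WT-Veh mice and the 3 transporters were higher. None of these 9 members passed the adjusted threshold, which 2 of 17564 genes did (0.0114%). Tek had the largest difference of the 9 (log2 fold change -0.30, SE 0.12, limma adjusted p = 0.978), and it was the 1 member with an unadjusted p under 0.05 and a lower value, against 2.47% of all genes. Flt1 (-0.15), Pecam1 (-0.12), and Kdr (-0.08) were lower in every WT-Mem mouse than in any WT-Veh mouse, as were 5.19% of all genes, and Abcb1a (0.14) was higher in every WT-Mem mouse, as were 4.15%. All 9 members had an adjusted p of 0.978 in this comparison. Slc2a1 (0.14) and Mfsd2a (0.16) overlapped.

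The comparison of memantine-treated knockouts with vehicle-treated wild-type mice (KO-M/WT-V) shares its mice with those above, so its values stand beside theirs and are not a separate line of evidence. The log2 fold changes were -0.49 for Tek (adjusted p = 0.074), -0.39 for Cdh5 (0.060), -0.33 for Pecam1 (0.088), -0.31 for Flt1 (0.103), and -0.28 for Cldn5 (0.113). These 5 of the 9 members had an unadjusted p under 0.05 and a lower value, against 13.2% of all genes, and all but Cldn5 had groups without overlap and a lower value, which 15.6% of all genes had. Kdr was at -0.19 and Abcb1a at -0.08, while Slc2a1 (0.10) and Mfsd2a (0.03) were on the other side of 0. None of the 9 members was called, against 595 of 17662 genes (3.37%). With the spread estimated from all 12 mice, Pecam1, Flt1, Tek, and Cdh5 passed the adjusted threshold, as did 2067 of 17655 genes (11.7%). Flt1 was smaller without KO-Mem replicate 1 (range -0.40 to -0.19 over leaving out each mouse).

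In WT-M/KO-V transcripts (WT-Mem against KO-Veh), 8 of the 9 members other than Arap3 were higher in WT-Mem mice, Tek being the exception at -0.02. Cldn5 (0.33), Mfsd2a (0.33), Abcb1a (0.20), Kdr (0.20), and Flt1 (0.16) made up the 5 with an unadjusted p under 0.05 and a higher value, against 4.71% of all genes. None passed the adjusted threshold, which 4 of 17648 genes did (0.0227%). The interaction of genotype and treatment over all 12 mice was between -0.15 (Abcb1a) and 0.27 (Cldn5) for the 9 members, and no member and no other gene passed (0 of 17655, 0%) with limma, while 840 genes had an unadjusted p under 0.05. A difference between the genotype contrasts of vehicle-treated and memantine-treated mice was not detectable for these genes with 3 mice per group.

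The junction and receptor genes were correlated with each other across the 12 mice. Over the 15 pairs among Cldn5, Pecam1, Flt1, Kdr, Tek, and Cdh5, the median Pearson correlation of the log2 values was 0.758 (median Spearman correlation 0.706), and 0.390 once the group means had been removed. Flt1 and Kdr, the VEGF receptors, were closest, at 0.89 over all mice and 0.81 within groups. The transporters Slc2a1 and Mfsd2a were correlated at 0.82 and 0.78. Abcb1a did not follow them as closely, at 0.26 and 0.03 with Slc2a1 and 0.46 and 0.19 with Mfsd2a, and was nearer to Pecam1 (0.57 and 0.54) and Cldn5 (0.55 and 0.47). The median over the 3 transporter pairs was 0.461, or 0.185 within groups. Between the 6 junction and receptor genes and the 3 transporters the median correlation was -0.040, or -0.348 within groups, and Cdh5 and Slc2a1 were at -0.39 over all mice and -0.85 within groups. This pair had the lowest within-group correlation of the 18 pairs between both sets. Mice with more glucose transporter RNA than the rest of their group tended to have less VE-cadherin RNA, but not all did. WT-Veh replicate 1 was below its group mean in both Slc2a1 (3203 against 3339) and Cdh5 (578 against 615). These are descriptions over 12 mice that share scaling and, in the overall values, group differences.

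**Figure D3:**
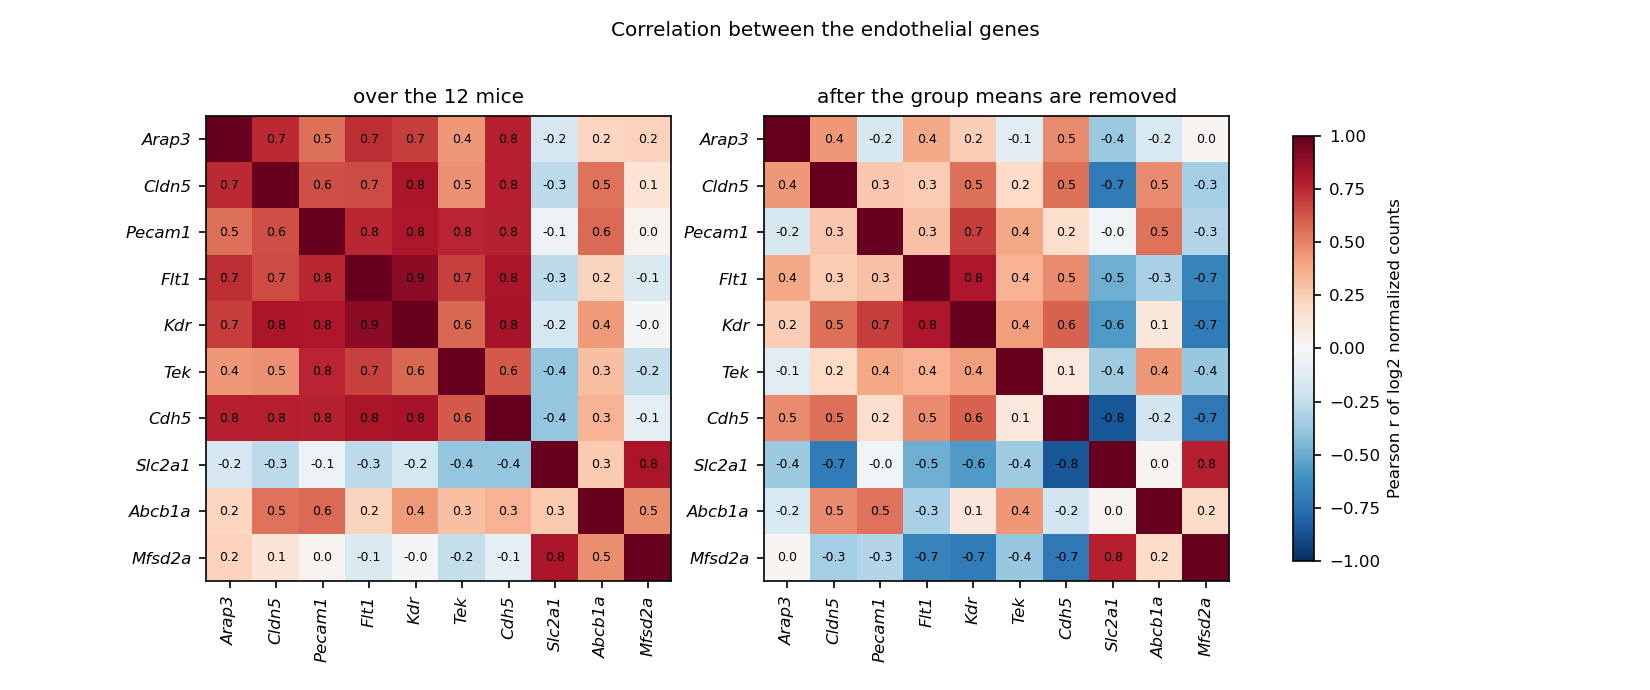
Pearson correlation (colour scale, -1 to 1) of log2 normalized counts between the 10 endothelial genes over the 12 mice (left) and after the group means are removed (right). Flt1 and Kdr (0.89 and 0.81) and Slc2a1 and Mfsd2a (0.82 and 0.78) stayed together in both panels, while Slc2a1 and Cdh5 were negatively correlated in both (-0.39 and -0.85).

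Over the 12 mice, the median correlation of Arap3 was 0.716 with the junction and receptor genes (6 pairs) and 0.216 with the transporters (3 pairs), which includes the gap between WT-Veh and KO-Veh mice that chose it. With the group means removed, the medians were 0.313 and -0.150, and the 6 pairs ran from -0.16 (Pecam1) and -0.12 (Tek) to 0.48 (Cdh5). Among the 12876 genes whose mean reached 100, Cdh5 was the nearest member, at rank 257 (correlation 0.778), followed by Cldn5 at 425 and Flt1 at 480. The first rank was held by Hspb1, which encodes the small heat shock protein HSP27, with a Pearson correlation of 0.969 and a Spearman correlation of 0.993 over the 12 mice, 0.946 after removal of the group means, and 0.966 without the 2 mice farthest from the Arap3 median (KO-Mem replicate 1 and KO-Veh replicate 3). Because Hspb1 was taken from the top of this ranking, no p is given.

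Hspb1 had 211, 234, and 242 in WT-Veh and 157, 199, and 233 in WT-Mem mice. Mutant mice had 135, 165, and 126 under vehicle and 134, 206, and 174 under memantine. The low WT-Mem mouse and the low KO-Mem mouse were replicate 1 for both Hspb1 and Arap3. Its log2 fold changes were -0.70 in Veh-K/W (adjusted p = 0.135) and -0.20 in Mem-K/W (adjusted p = 0.586). The next ranks were held by Cox16 (correlation 0.941), an assembly factor of cytochrome c oxidase, Ppp1r11 (0.917), Lbh (0.913), and Tmem115 (0.906). None of these 5 was on an endothelial list.

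**Figure D4:**
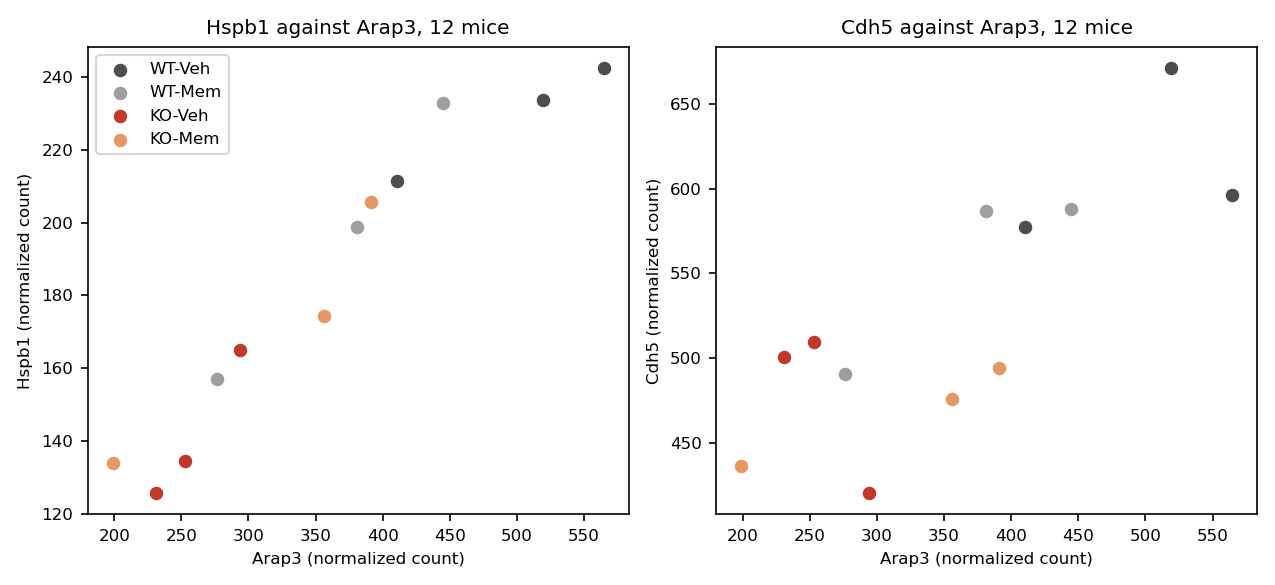
Normalized count of Hspb1 (left) and Cdh5 (right) against that of Arap3, with 1 point per mouse coloured by group. Hspb1 follows Arap3 in the order of the mice within groups as well as between them (correlation 0.969), and Cdh5 more loosely (0.778).

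The wider endothelial programme was read from 25 other endothelial genes, a list also chosen with earlier results of these data known. In Veh-K/W, 25 of 25 were lower in the knockouts, with a median log2 fold change of -0.26, 11 had an unadjusted p under 0.05 (7.68% of all genes) and 17 had groups without overlap (10.7%). In Mem-K/W, 18 of 25 were lower, with a median of -0.22, 9 at an unadjusted p under 0.05 (10.8%) and 9 without overlap (13.5%). The median of all genes was 0.00 in both, and no gene of the list passed the adjusted threshold in either. Their summed normalized count was 13969 to 15256 in WT-Veh and 12302 to 12645 in KO-Veh mice, and 13302 to 14454 in WT-Mem and 11684 to 12360 in KO-Mem mice. The knockouts were again below the wild-type mice under both treatments.

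Emcn, the sialomucin endomucin of veins and capillaries, had 139.7, 165, and 182 in WT-Veh and 102, 107, and 119 in KO-Veh mice, without overlap (log2 fold change -0.56, adjusted p = 0.186). In Mem-K/W its log2 fold change was -0.74 (adjusted p = 0.113), again without overlap. Tie1, the partner receptor of Tek, was at -0.34 and -0.50 in these comparisons (adjusted p = 0.232 and 0.102), and the endothelial transcription factor Sox17 at -0.36 and -0.60 (0.299 and 0.182). Differences of the same sign were found for Cd34 (-0.22 and -0.22), the sialomucin Podxl (-0.22 and -0.21), Itm2a (-0.26 and -0.64), and the phosphatase Ptprb (-0.16 and -0.26). Ptprb excepted, these genes were named because their unadjusted p was under 0.05 in both comparisons, so their agreement was built into the choice. The highest value of the list in Mem-K/W was 0.31. Genes named from the lists below were chosen likewise, apart from those with the highest mean. In KO-M/WT-V, 4 genes of the list were called and lower, namely Emcn (-0.94, adjusted p = 0.041), Tie1 (-0.72, 0.035), Podxl (-0.42, 0.043), and Ptprb (-0.32, 0.048), beside 3.37% of all genes. That set of calls depends on single mice, since 1 gene of the whole table was called without KO-Mem replicate 1 or without KO-Mem replicate 2, 3 without WT-Veh replicate 2, 4 without WT-Veh replicate 3, 54 without WT-Veh replicate 1, and 2490 without KO-Mem replicate 3.

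No gene of the junction and transport lists passed the adjusted threshold in Veh-K/W or Mem-K/W. Of 12 further junction genes, 11 were lower in Veh-K/W and 9 in Mem-K/W, but the medians were small (-0.12 and -0.11). At an unadjusted p under 0.05, 1 and 2 genes were lower, against 7.68% and 10.8% of all genes. The junction adaptor Cgnl1 (paracingulin) was at -0.26 and -0.35 (adjusted p = 0.278 and 0.143). Afdn, with the highest mean of the junction list, went the other way, at 0.06 and 0.15 (limma adjusted p = 0.724 and 0.414). Of 17 further barrier transport genes, 13 and 12 were lower, with medians of -0.05 and -0.07. Here Tfrc, the transferrin receptor, was higher in knockouts (0.37 and 0.57, adjusted p = 0.226 and 0.130), while Bsg, the partner of lactate transporters, was lower (-0.16 and -0.28, adjusted p = 0.328 and 0.097). Both Tfrc and Bsg are also made outside vessels.

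The 15 genes of the Wnt/beta-catenin pathway, which builds and keeps the barrier, had medians of -0.06 in Veh-K/W and -0.14 in Mem-K/W. Of these genes, 3 and 1 were lower at an unadjusted p under 0.05, against 7.68% and 10.8% of all genes. Ctnnb1, with the highest mean of the list, was at 0.13 and -0.04 (limma adjusted p = 0.381 and 0.621).

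Among 15 genes of VEGF, angiopoietin, Notch and apelin signalling, 10 were lower in Veh-K/W (3 at an unadjusted p under 0.05) and 5 in Mem-K/W (4 at an unadjusted p under 0.05). Of all genes, 7.68% and 10.8% were lower at an unadjusted p under 0.05. The ligand Vegfa was at -0.06 and 0.06 (adjusted p = 0.789 and 0.822), with differences smaller than the spread between mice. The apelin pair stood apart. Apln, the ligand made by endothelial tip cells, had 749, 833, and 838 in WT-Veh and 697, 631, and 579.6 in WT-Mem mice. Mutant mice had 393, 558, and 302 under vehicle and 153, 277.5, and 479.8 under memantine. Every knockout was below every wild-type mouse, with log2 fold changes of -0.99 in Veh-K/W (SE 0.18, limma adjusted p = 0.134) and -1.21 in Mem-K/W (SE 0.32, limma adjusted p = 0.102).

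Its receptor Aplnr was low in the tissue, at 68, 66.3, and 73.3 in WT-Veh and 26.8, 42.4, and 28.6 in KO-Veh mice, and at 47.7, 40.6, and 53.7 in WT-Mem and 7.0, 16.8, and 36.1 in KO-Mem mice. The groups did not overlap under either treatment, with log2 fold changes of -1.09 (SE 0.23, limma adjusted p = 0.137) and -1.46 (SE 0.48, limma adjusted p = 0.140). Groups without overlap and a lower value, as for Apln and Aplnr, were found for 10.7% of all genes in Veh-K/W and 13.5% in Mem-K/W. In KO-M/WT-V both passed the adjusted threshold (Apln -1.56, adjusted p = 0.035; Aplnr -2.01, adjusted p = 0.046), with the dependence on single mice given above. Apln is also expressed outside vessels in brain. Both genes were named because their unadjusted p was under 0.05 in Veh-K/W and again in Mem-K/W.

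Genes that mark positions along the vessel tree were not all on 1 side. Of 12, 5 were lower in Veh-K/W (median 0.16) and 9 in Mem-K/W (median -0.07). At an unadjusted p under 0.05, 3 were lower and 3 higher in Veh-K/W, and 5 lower and 2 higher in Mem-K/W. Among all genes, 1358 were lower and 1190 higher of 17671 in Veh-K/W, and 1912 lower and 1790 higher of 17646 in Mem-K/W. The capillary gene Rgcc had 326, 401, and 391 in WT-Veh and 211, 246, and 205 in KO-Veh mice, and 337, 297, and 351 in WT-Mem and 154, 211, and 206 in KO-Mem mice, without overlap under either treatment (log2 fold changes -0.75 and -0.79, adjusted p = 0.132 and 0.088). Of all genes, 10.7% and 13.5% had groups without overlap and a lower value. Gkn3, which marks arterial endothelium, was at -0.53 and -1.24 (adjusted p = 0.274 and 0.136). The arterial ephrin Efnb2 went the other way, at 0.42 and 0.34 (adjusted p = 0.186 and 0.088). Many neurons also express Efnb2, and the cells behind the values of these genes were not tested.

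**Figure D5:**
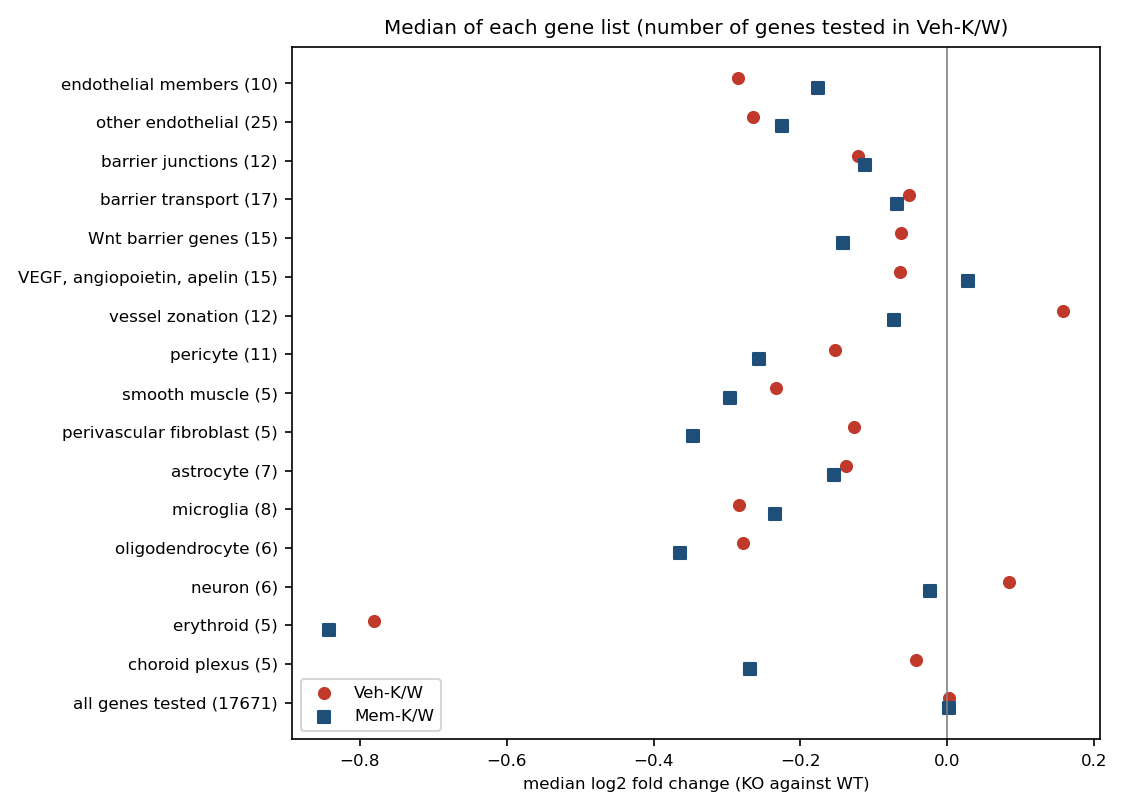
Median log2 fold change (horizontal axis) of the genes of each list in Veh-K/W (circles) and Mem-K/W (squares), with the number of genes in brackets. In Veh-K/W the members and the other endothelial genes lay near microglia and oligodendrocytes, in Mem-K/W the oligodendrocyte median (-0.36) was lower than that of the members (-0.18), the erythroid genes lay farthest from 0, and all genes tested lay at 0.00.

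Markers of most other cells of the tissue differed in the same direction as the endothelial genes, and their part in the result was not tested. The medians of neurons (0.08 in Veh-K/W and -0.02 in Mem-K/W) and of choroid plexus in Veh-K/W (-0.04) were near 0. In every list below, all genes were measured and none was at 0 in any mouse. Of 11 pericyte markers, 9 were lower in Veh-K/W and 8 in Mem-K/W (medians -0.15 and -0.26), and their sums were 8016 to 9224 in WT-Veh, 7326 to 7827 in KO-Veh, 7517 to 8198 in WT-Mem, and 6477 to 6676 in KO-Mem mice. The pericyte gene Rgs5 was at -0.39 and -0.71 (adjusted p = 0.157 and 0.088). Of 5 smooth muscle markers, 3 and 5 were lower (sums 1587 to 1692, 1241 to 1664, 1269 to 1558, and 1082 to 1259, in the same order of groups), and of 5 perivascular fibroblast markers, 4 and 5 (sums 5076 to 5504, 4202 to 4666, 4415 to 4454, and 3601 to 4802). Pdgfra, with group means between 2189 and 2238, supplied a large part of each fibroblast sum and hardly differed (0.02 and -0.005).

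Outside the vessel wall, all 6 oligodendrocyte markers were lower in both comparisons (medians -0.28 and -0.36), with sums of 329081 to 407701 in WT-Veh, 285943 to 305397 in KO-Veh, 294380 to 345277 in WT-Mem, and 237444 to 280479 in KO-Mem mice. Of 8 microglial markers, 8 and 7 were lower (medians -0.28 and -0.23), with sums, in the same order, of 8835 to 11210, 8769 to 9018, 9056 to 9629, and 7360 to 8483. Of 7 astrocyte markers, 6 and 6 were lower (medians -0.14 and -0.15; sums 114128 to 115119, 105306 to 114103, 102679 to 118463, and 103640 to 107826), among them Aqp4, the water channel of the endfeet that wrap vessels, at -0.48 and -0.65 (adjusted p = 0.151 and 0.088). Slc1a2, with the highest mean of the astrocyte list, was at -0.07 and -0.08 (limma adjusted p = 0.697 and 0.587). Of 6 neuronal markers, 2 and 4 were lower (medians 0.08 and -0.02, sums 147498 to 171528, 163173 to 169587, 164250 to 172712, and 164882 to 166200). Among them Gad2 was higher in the knockouts, at 0.21 and 0.17 (limma adjusted p = 0.238 and 0.223). Snap25, with the highest mean of the neuronal list, was on the other side of 0, at -0.07 and -0.03 (limma adjusted p = 0.663 and 0.749).

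The erythroid markers, which follow the blood left in the vessels, had the lowest medians of the lists. All 5 were lower in both comparisons (medians -0.78 and -0.84), 4 at an unadjusted p under 0.05 in each, against 7.68% and 10.8% of all genes. Their sums were 19448 to 26320 in WT-Veh, 7567 to 18764 in KO-Veh, 13301 to 14809 in WT-Mem, and 5626 to 12528 in KO-Mem mice. KO-Veh replicate 3 and KO-Mem replicate 1 were the lowest mice of their groups, as they were for Arap3. The order differed in WT-Veh mice. In mean log2 deviation, WT-Veh replicate 3 was the lowest of its group for the erythroid markers (0.55) and the highest for Arap3 (0.72). A link between Arap3 and these markers was not tested. Of 5 choroid plexus markers, 3 and 5 were lower (medians -0.04 and -0.27), with sums of 12648 to 14879, 11242 to 15676, 13148 to 14695, and 7349 to 14261 in the order used above. The medians of the 9 members other than Arap3 were -0.28 and -0.17, near those of microglia and oligodendrocytes in Veh-K/W and nearer to that of astrocytes in Mem-K/W, and a difference particular to endothelial genes was not tested.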

How the data were processed

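Gene expression was measured by paired-end sequencing of poly-A RNA from 12 mice, 3 per group, none of them pooled. The authors estimated transcript abundance with Salmon 1.1.0 on GRCm38 with GC bias correction, summed it to genes and divided it by DESeq2 size factors; the deposited signal values are these normalized counts, 1 column per mouse. The labels' processing notes name DESeq2 1.26.0. The values are not whole reads, so read depth is unknown and counting intervals are not given.

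Symbols, positions and lengths came from GENCODE M21, which held 19295 of the 19312 genes. Values were tested with limma 3.58.1 in R 4.3.3 (lmFit and eBayes with trend) on log2(value + 1), which understates changes of low genes, for genes with a mean of at least 10. P-values were adjusted by Benjamini-Hochberg over all genes tested, and genes with an adjusted p under 0.05 were called. Each of the 6 comparisons used its own 6 mice, and the interaction all 12. An exact permutation test of 3 mice against 3 cannot go below 0.1. The script was checked on simulated data.

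The members and gene lists were chosen with earlier results of these data known. Named genes are the 10 members, Shank2, the 5 genes most correlated with Arap3, and genes of the lists. The latter were the gene with the highest mean or genes with an unadjusted p under 0.05 in Veh-K/W and again in Mem-K/W. Not every such gene is named, and oligodendrocyte, microglial, erythroid and some other lists are summarised by counts. The labels do not say whether mice shared litters. No columns were identical. Alternatives were another pseudocount, filter or scaling, 1 fit of all mice, a replicate block, no trend, and leaving out each mouse. A list of signalling partners of Arap3 is not reported here.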

Additional observations from a re-analysis of the deposited data

How the results depend on the processing

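No member passed the adjusted threshold of 0.05 in any of the 6 comparisons or the interaction, and among the alternatives run the 9 members other than Arap3 were called in KO-M/WT-V alone. There 4 passed with all 12 mice in 1 fit (Pecam1, Flt1, Tek, Cdh5), beside 11.7% of all genes. With the replicate block 2 passed (Arap3, Tek), beside 999 of 17662 genes. Leaving out each mouse gave 0 to 1 (Cdh5 without KO-Mem replicate 3, beside 2490 of 17666 genes). In Veh-K/W, the range was 0 to 1. The 1 was Arap3 without KO-Veh replicate 2 (53 of 17682 genes called) or WT-Veh replicate 1 (8 of 17695). The calls of Arap3 in both comparisons rest on mice that chose it, so they are no test.

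Counts of all genes called moved more. Veh-K/W gave 3 with a pseudocount of 0.5 or 5, 2 with a filter at a mean of 50, with all 12 mice in 1 fit or with the replicate block, and 2 to 53 over leaving out each mouse. Mem-K/W gave 5 with no filter, 636 with all 12 mice, 4 with the block or no trend, and 2 to 1911. WT-M/V gave 1 with either pseudocount or the block, 0 with the filter at 50 or all 12 mice, and 1 to 3. KO-M/WT-V gave 365 with no filter, 2067 with all 12 mice, 999 with the block, 7 with no trend, and 1 to 2490. WT-M/KO-V gave 2 with the block, 0 with no trend (1411 genes at an unadjusted p under 0.05), and 1 to 5, KO-M/V 0 to 97, and the interaction 0 to 4. The number of the 9 members lower at an unadjusted p under 0.05 in Mem-K/W was 2 with a pseudocount of 0.5, the filter at 50 or the block, 3 with all 12 mice, and 0 to 3. In WT-M/V it was 2 with upper quartile scaling, 0 with no trend, and 0 to 2, in KO-M/V 0 to 1, and in WT-M/KO-V (higher) 3 with upper quartile scaling, 2 with no trend, and 1 to 4. The cause was not tested.

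Directions turned with 1 mouse left out where log2 fold changes were small: Slc2a1 in Veh-K/W (-0.120 to 0.0492) and Mem-K/W (-0.112 to 0.0493), Arap3 in Mem-K/W (-0.443 to 0.0496), Flt1 (-0.0955 to 0.112), Cdh5 (-0.109 to 0.0294), and Abcb1a (-0.0621 to 0.0406) in KO-M/V, Mfsd2a in KO-M/WT-V (-0.0611 to 0.141), Tek in WT-M/KO-V (-0.0730 to 0.0226), and Slc2a1 (-0.0953 to 0.0906), Mfsd2a (-0.0598 to 0.198), and Pecam1 (-0.0248 to 0.111) in the interaction. Same-numbered mice did not deviate together (correlations from -0.18 to 0.08) and in no comparison did all 3 correlate best with their own number, so the replicate block has no basis in the design.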
